A study of Homo sapiens with 19 samples.

Results

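Expression of 10 transcription factor genes of the primitive streak was examined across human embryonic stem cells (hESCs) that had lost different components of polycomb repressive complex 2 (PRC2). The genes were *T*, *MIXL1*, *EOMES*, *GSC*, *MESP1*, *MESP2*, *TBX6*, *LHX1*, *CDX1* and *CDX4*, and all 10 were found once among the 33382 genes measured. They were chosen by name, with earlier results of these data known, as were the gene lists used below. Shares of these genes set beside shares of all genes are therefore descriptions, not independent tests. RNA-seq had been done on 19 samples of H1, an established hESC line grown in defined medium on matrigel. There were 2 samples each of WT H1, of the single knockouts SUZ12-/- H1, EED-/- H1, EZH2-/- H1 and EZH1-/- H1, and of the double knockout EZH2-/-/EZH1-/- H1. The knockouts were made with CRISPR/Cas9 and a targeting vector that removed the domain critical for each protein, and the samples of 1 knockout line carried different clone or culture names. In H1-EED-/-/EED-OE cells the endogenous *EED* was deleted while a lentiviral, doxycycline (DOX)-inducible *EED* was expressed, and they were sampled once with DOX and once at each of days 8, 12, 16, 20, 24 and 28 after DOX was withdrawn. All 7 of these samples therefore carried the *EED* deletion and the transgene, and no day had a replicate. The treatment label of the sample with DOX gives no day, and its title carries the tag D28. Changes from the level with DOX are thus differences from that sample, which may not be the start of the course. The term PRC2-null stands for 3 of these lines, the double knockout and those without *EED* or *SUZ12*, and the 3 other lines are WT H1 and those without *EZH1* or *EZH2* alone.

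The primitive streak is the structure through which cells of the pluripotent epiblast pass as they become mesoderm and definitive endoderm. NODAL, WNT and BMP signals induce it, and T-box and homeobox factors such as *T*, *EOMES* and *MIXL1* are switched on in cells that enter it and switched off again as these cells take up their later fates. PRC2 places the repressive mark H3K27me3 on histone H3, and in hESCs it is known to occupy CpG-rich promoters of silent developmental regulators.

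Values are TPM, the share of a gene among all transcripts of a sample on a common scale, which takes transcript length into account, so that levels of different genes may be set side by side. Differences are on the log2(TPM + 1) scale, which shrinks the differences of weakly expressed genes. With 2 samples a line, SE and p-values rest on the spread between samples of the same line, pooled over the lines. Those of the average over the PRC2-null lines leave out the differences between these lines. Since the samples are bulk cultures, fewer cells of a type and less RNA per cell cannot be told apart. The sequencing depth behind the TPM values is unknown. A TPM of at least 1 was reached by 14389 to 15704 genes in the samples of the 3 other lines, by 16184 to 17043 in the PRC2-null samples and by 14471 to 16223 in the time course. The pluripotency genes *POU5F1*, *SOX2* and *NANOG* marked the 6 samples of the 3 other lines as hESCs, with *POU5F1* at 2428 to 3456 TPM there and at 3.62 to 149.8 TPM in the PRC2-null samples. Gene-level TPM did not check the deletions, since only part of each gene was removed. *EED* was at 14.2 and 22.4 TPM in EED-/- H1 and at 17.3 and 22.0 TPM in WT H1. It was at 109 TPM with DOX and at 12.6 to 31.6 TPM on the days without it.

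The genes lie on 9 chromosomes (GENCODE 44, GRCh38), and none but *MESP1* and *MESP2* are neighbours. The T-box genes are *T*, named TBXT there, at chr6:166157656-166168700 and *EOMES* at chr3:27715949-27722711 on the minus strand, and *TBX6* at chr16:30085793-30091924, also on the minus strand. The homeobox genes are *MIXL1* at chr1:226223618-226227060, *LHX1* at chr17:36936785-36944612, *CDX1* at chr5:150166778-150184558 and *CDX4* at chrX:73447053-73455171 on the plus strand and *GSC* at chr14:94768223-94770113 on the minus strand. *MESP1* at chr15:89749875-89751249 and *MESP2* at chr15:89760591-89778754 lie on opposite strands of 1 chromosome. The promoters of the genes differed in their content of CpG. In the 250 bases before the RefSeq start (GRCh38.p14), which were found for 7 of the 10 genes, *MIXL1* had 30 CpG, *TBX6* had 28, *T* had 23, *EOMES* had 19 and *GSC* had 18. *MESP2* had 6 and *CDX4* had 3, against a median of 11 over 35116 promoters of the same length. Promoters of *LHX1*, *MESP1* and *CDX1* were not analysed here. The stretches below, with every CpG in capitals, are shown because *MIXL1* and *T* rose most above the lines after DOX withdrawal while *CDX4* stayed low throughout. The first lies at chr1:226223414-226223617 on the plus strand and the second at chr6:166168701-166168905 on the minus strand, both without the bases that GENCODE places in the gene. The third lies at chrX:73446803-73447052 on the plus strand.
MIXL1: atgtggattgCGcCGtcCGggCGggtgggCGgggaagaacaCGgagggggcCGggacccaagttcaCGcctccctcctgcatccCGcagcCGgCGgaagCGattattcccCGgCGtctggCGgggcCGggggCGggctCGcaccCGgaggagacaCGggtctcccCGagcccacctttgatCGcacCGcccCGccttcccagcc
T: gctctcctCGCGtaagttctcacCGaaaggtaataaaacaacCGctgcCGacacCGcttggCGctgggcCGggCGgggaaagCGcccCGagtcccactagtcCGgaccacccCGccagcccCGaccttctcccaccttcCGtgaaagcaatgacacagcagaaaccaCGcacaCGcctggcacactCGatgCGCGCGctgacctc
CDX4: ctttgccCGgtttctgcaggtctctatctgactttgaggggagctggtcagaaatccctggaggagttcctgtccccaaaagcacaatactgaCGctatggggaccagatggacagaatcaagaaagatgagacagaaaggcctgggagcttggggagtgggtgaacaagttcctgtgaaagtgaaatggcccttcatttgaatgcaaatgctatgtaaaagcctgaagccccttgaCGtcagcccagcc

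The *MIXL1* stretch held 24 CpG in 204 bases and the *T* stretch 21 in 205 bases. These stretches were picked by expression, and *MESP2*, with 6 CpG in its window, also peaked above every line sample. Whether CpG content and expression are linked was not tested. The letters of 4 short motifs were searched on both strands of the 7 windows, those of the WNT effectors TCF/LEF (CTTTGAT), the NODAL effector FOXH1 (AATNCACA), T-box factors (TCACACC) and bicoid-class homeobox factors such as GSC (TAATCC). The TCF/LEF letters were found in 1 window, that of *MIXL1*, and in 2.26% of all promoters. The FOXH1 letters were found in the windows of *MIXL1* and *MESP2*, and in 2.89% of all promoters. The T-box letters were in 0 of the 7 windows and 2.76% of promoters, and the bicoid-class letters in 0 of 7 and 5.62% of promoters. A match is a description of these letters, not evidence of a site.

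On average over the 3 PRC2-null lines, *T*, *EOMES*, *GSC*, *LHX1* and *CDX1* rose from levels near 0, while the presomitic gene *TBX6* and *CDX4* were at lower values and *MIXL1*, *MESP1* and *MESP2* stayed low in all 6 lines. With the average of the 3 PRC2-null lines set against the average of the 3 other lines, 5 of the 10 genes were called higher by limma (fold change of at least 3, Benjamini-Hochberg adjusted p no higher than 1%), against 13.5% of the 19100 genes tested. These 5 reached the TPM of 1 that the fit required in PRC2-null samples alone, and were at most 0.45 TPM in the others. None of the 10 was called lower, against 5.09% of all genes, while all 10, *MESP2*, *TBX6* and *CDX4* with lower values among them, had an unadjusted p below 0.05, as had 71.1% of all genes. The median log2 fold change was 1.27 over the 10 genes and 0.29 over all genes.

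*T*, the founding T-box gene and the classical marker of the whole streak, was at 0.37 and 0 TPM in WT H1, at 0 and 0.12 TPM in EZH1-/- H1 and at 0.30 and 0.18 TPM in EZH2-/- H1. It was at 3.74 and 1.56 TPM in EED-/- H1, at 3.39 and 2.61 TPM in SUZ12-/- H1 and at 3.95 and 4.13 TPM in EZH2-/-/EZH1-/- H1. All 6 PRC2-null samples were above all 6 others, and the log2 fold change was 1.84 ± 0.18 (SE, adjusted p = 6.0e-06, limma). *EOMES*, a T-box factor of the early streak needed for definitive endoderm and cardiac mesoderm, was at 0.05 to 0.15 TPM in the 6 other samples. It was at 9.69 and 18.5 TPM in EED-/- H1, at 2.74 and 2.41 TPM in SUZ12-/- H1 and at 7.48 and 4.17 TPM in EZH2-/-/EZH1-/- H1. The groups did not overlap, and the log2 fold change was 2.65 ± 0.19 (SE, adjusted p = 5.6e-07, limma).

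The homeobox genes *GSC* and *LHX1* had their highest levels in EED-/- H1. *GSC*, a homeobox repressor of the organizer, was at 0 TPM in 4 of the 6 other samples and at most 0.36 TPM. It was at 7.80 and 6.35 TPM in EED-/- H1, at 2.12 and 0.57 TPM in SUZ12-/- H1 and at 2.48 and 3.07 TPM in EZH2-/-/EZH1-/- H1, and its change was 1.93 ± 0.19 (log2, SE, adjusted p = 5.6e-06, limma). The groups did not overlap, but SUZ12-/- H1 replicate 2, at 0.57 TPM, was close to the highest of the others. *LHX1*, a LIM-homeobox factor of the organizer and anterior mesendoderm, was at 0.16 to 0.45 TPM in the other samples. It was at 28.6 and 26.5 TPM in EED-/- H1, at 2.39 and 3.06 TPM in SUZ12-/- H1 and at 16.0 and 3.55 TPM in EZH2-/-/EZH1-/- H1. Both EED-/- H1 samples were far above both SUZ12-/- H1 samples, and those of EZH2-/-/EZH1-/- H1 spread between them (log2 fold change 2.89 ± 0.28 SE, adjusted p = 4.4e-06, limma).

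The caudal homeobox genes, which set posterior identity by way of the *HOX* clusters, went separate ways. *CDX1* was at 0 to 0.17 TPM in the 6 other samples, at 2.82 and 3.55 TPM in EED-/- H1, at 21.9 and 20.9 TPM in SUZ12-/- H1 and at 4.12 and 6.91 TPM in EZH2-/-/EZH1-/- H1. Its log2 fold change, 2.97 ± 0.16 (SE, adjusted p = 6.2e-08, limma), was the highest of the 10, within 1 SE of that of *LHX1*. *CDX4* was at 0.88 and 2.13 TPM in WT H1, at 0.60 and 0.94 TPM in EZH1-/- H1 and at 2.2 and 1.43 TPM in EZH2-/- H1, and at 0 to 0.44 TPM in the 6 PRC2-null samples. All 6 were below all 6 others, yet the log2 fold change of -0.96 ± 0.17 (SE, adjusted p = 0.00039, limma) did not reach 3-fold. With a pseudocount of 0.1 in place of 1, it was -2.53 and passed.

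*MIXL1*, a paired-like homeobox gene induced by NODAL and BMP signals, was at 0.74 to 1.53 TPM in the 6 other samples and at 1.60 to 3.53 TPM in the 6 PRC2-null samples. The groups did not overlap, but the log2 fold change was 0.68 ± 0.18 (SE, adjusted p = 0.0054, limma), under 3-fold. *MESP1*, a basic helix-loop-helix factor of nascent and cardiac mesoderm, was at 0.06 to 0.73 TPM in the other samples and at 0.20 to 2.72 TPM in the PRC2-null samples. *MESP2*, its neighbour on chromosome 15 and a factor of somite segmentation, was at 0.20 to 1.88 TPM and at 0 to 0.45 TPM. Neither was called, with log2 fold changes of 0.70 ± 0.23 for *MESP1* and -0.65 ± 0.22 for *MESP2* (SE, adjusted p = 0.017 and 0.022, limma), and both groups overlapped. The 2 genes are paralogs, and whether reads were shared between them was not tested. *TBX6*, a T-box factor of presomitic mesoderm, was at 0.56 to 4.69 TPM in the other samples and at 0.15 to 2.17 TPM in the PRC2-null samples, and its change of -0.92 ± 0.19 (log2, SE, adjusted p = 0.0015, limma) passed 3-fold only with a pseudocount of 0.1 (-1.77). Its groups overlapped too, with 2.17 and 1.79 TPM in SUZ12-/- H1 against 2.56 and 2.47 TPM in WT H1 (-0.24 ± 0.34 log2, SE). It was at 0.16 and 0.15 TPM in EED-/- H1 and at 0.41 and 0.37 TPM in EZH2-/-/EZH1-/- H1.

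Across all 6 lines, 6 of the 10 genes had every PRC2-null sample above every other sample, as did 24.2% of all genes tested, and 1 had every PRC2-null sample below, as did 13.3%. The share above is higher than over all genes, and that below is close to it. However, *T*, *EOMES*, *GSC*, *LHX1* and *CDX1* passed the filter on low values through PRC2-null samples alone. That filter favours such a separation, so the share above only describes these genes. Compared one line at a time, EZH1-/- H1 and EZH2-/- H1 had 0 of the 10 called against WT H1 by limma, and 0 with an unadjusted p below 0.05, as had 16.0% of all genes in EZH1-/- H1 and 5.81% in EZH2-/- H1. Over all genes, 0.0995% were called in EZH1-/- H1 and 0.0% in EZH2-/- H1, so few genes of any kind were called in these lines.

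In EED-/- H1, 4 genes were called higher than in WT H1 (16.2% of all genes), with log2 fold changes of 4.47 ± 0.48 for *LHX1*, 3.73 ± 0.34 for *EOMES*, 2.95 ± 0.33 for *GSC* and 1.90 ± 0.28 for *CDX1*. *T*, at 1.57 ± 0.32, was just under 3-fold and passed without WT H1 replicate 1 (1.80) or without EED-/- H1 replicate 2 (2.02). *TBX6* was the 1 gene called lower (6.09% of all genes), at -1.61 ± 0.34, from 2.56 and 2.47 TPM in WT H1 to 0.16 and 0.15 TPM in EED-/- H1. The *TBX6* call was lost when any 1 of these 4 samples was left out (adjusted p 0.014 to 0.019, limma), the fold change staying at -1.59 to -1.62. In SUZ12-/- H1, 3 genes were called higher (14.5% of all genes), with *CDX1* at 4.32 ± 0.28, *T* at 1.77 ± 0.32 and *EOMES* at 1.71 ± 0.34. Of these, *CDX1* alone was called without WT H1 replicate 2, and likewise without SUZ12-/- H1 replicate 1, and *EOMES* lost the call whichever 1 of the 4 samples was left out (adjusted p 0.012 to 0.018, limma). In EZH2-/-/EZH1-/- H1, 5 genes were called higher (11.6% of all genes), with *LHX1* at 2.78 ± 0.48, *EOMES* at 2.60 ± 0.34, *CDX1* at 2.51 ± 0.28, *T* at 2.11 ± 0.32 and *GSC* at 1.85 ± 0.33. The call of *LHX1* was lost without WT H1 replicate 1 (adjusted p = 0.0104) or with only the 4 samples of this line and WT H1 fitted (adjusted p = 0.029), and that of *GSC* without WT H1 replicate 2 (adjusted p = 0.013, limma). The change of *LHX1* was 1.83 without replicate 1 of the double knockout and 3.72 without its replicate 2. Errors are SE. The 5 line comparisons with WT H1 share its 2 samples.

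**Figure D1:**
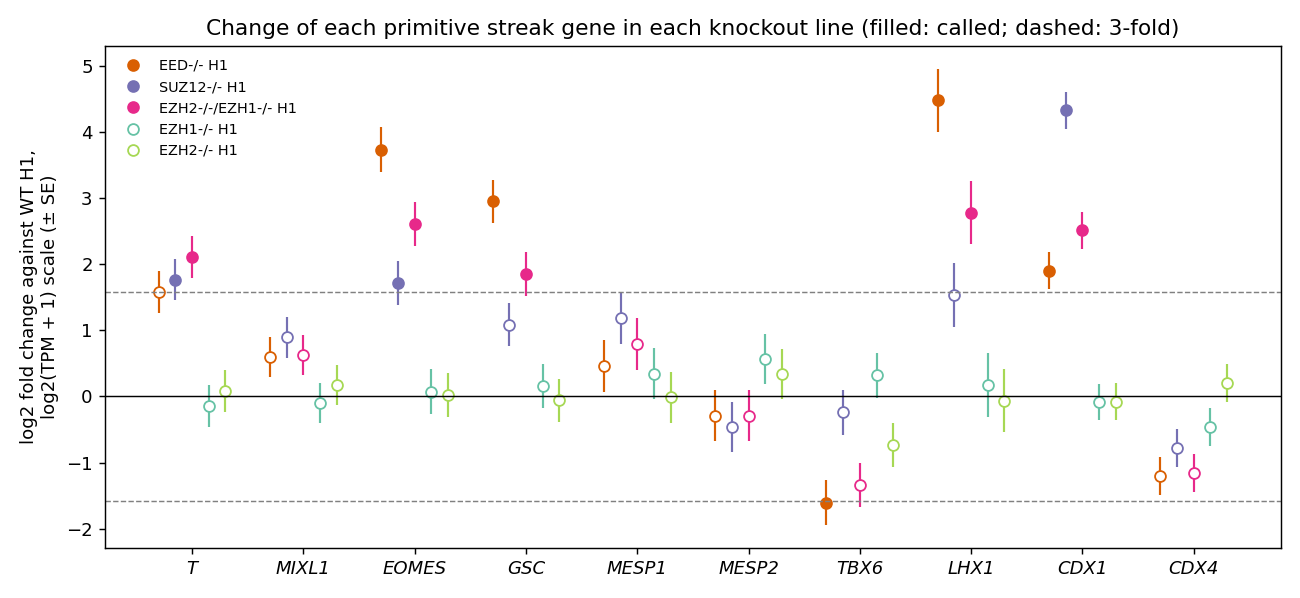
Log2 fold change of each gene against WT H1 on the log2(TPM + 1) scale (vertical axis) in the 5 knockout lines (colours), with bars of ± 1 SE from limma. Filled points passed the thresholds, open points did not, and dashed lines mark 3-fold. EZH1-/- H1 and EZH2-/- H1 have open points throughout, while *CDX1* is highest in SUZ12-/- H1 and *EOMES*, *GSC* and *LHX1* are highest in EED-/- H1.

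The PRC2-null lines also differed from one another in these genes. Their replicates were not equally close, while the fit pooled the spread over all lines. The median absolute log2 difference between replicates was 0.13 in SUZ12-/- H1, 0.30 in EED-/- H1 and 0.51 in EZH2-/-/EZH1-/- H1. Between SUZ12-/- H1 and EED-/- H1, 4 of the 10 differed past the thresholds, against 6.12% of all genes. *LHX1* (-2.94 ± 0.48 SE, adjusted p = 0.0017), *EOMES* (-2.02 ± 0.34, adjusted p = 0.0020) and *GSC* (-1.86 ± 0.33, adjusted p = 0.0028) were lower in SUZ12-/- H1, and *CDX1* (2.43 ± 0.28, adjusted p = 0.00020, limma) was higher. *LHX1* lost the call without any 1 of the 4 samples (adjusted p 0.011 to 0.023), *EOMES* without either SUZ12-/- H1 sample or EED-/- H1 replicate 2, and *GSC* without either EED-/- H1 sample or SUZ12-/- H1 replicate 2, while *CDX1* kept it. With a pseudocount of 0.1, *EOMES*, *GSC* and *CDX1* had adjusted p-values of 0.015, 0.058 and 0.012 (limma). Between EZH2-/-/EZH1-/- H1 and SUZ12-/- H1 the 1 gene called was *CDX1*, at -1.82 ± 0.28 (SE, adjusted p = 0.0015, limma), against 4.46% of all genes. That call was lost without either SUZ12-/- H1 sample, without EZH2-/-/EZH1-/- H1 replicate 1 and with a pseudocount of 0.1 (adjusted p = 0.057, limma), the direction staying the same. Between EZH2-/-/EZH1-/- H1 and EED-/- H1 limma called 0 of the 10, against 0.089% of all genes, and 3 of the 10 had an unadjusted p below 0.05, as had 20.1% of all genes. The largest of these differences were in *LHX1*, at -1.70 ± 0.48, *EOMES*, at -1.13 ± 0.34, and *GSC*, at -1.10 ± 0.33 (SE).

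After DOX withdrawal most of the streak genes rose and then fell again within the course, and *CDX4* did not. A gene was counted as transient where its highest level on days 8 to 24 was at least 2-fold, or 1 on the log2(TPM + 1) scale, above both the sample with DOX and day 28. Of the 9 genes that reached a TPM of 1 in the course, 8 met this, against 11.7% of the 19011 genes examined. *CDX4*, at 0 to 0.79 TPM, was too low, and *GSC* missed by its level on day 28. With 1 sample a day there is no test, and each of these values is a single library. The median rise, the smaller of the 2 differences, was 2.92 over the 9 genes and 0.11 over all.

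*T*, *MIXL1* and *EOMES* rose together by day 12 and were high on days 16 and 20. *T* was at 0 TPM with DOX and at 0.68, 17.5, 125, 186, 0.74 and 13.1 TPM on days 8, 12, 16, 20, 24 and 28. *MIXL1* was at 1.34 TPM with DOX and at 0.16, 33.9, 303, 164, 3.08 and 5.33 TPM on the same days. *EOMES* went from 0.08 TPM with DOX to 0.15, 14.5, 115, 96.6, 16.0 and 43.4 TPM. All 3 were still low on day 8 and rose by between 3.46 and 4.91 (log2) from day 8 to day 12. From day 20 to day 24 the difference was -6.75 for *T*, -5.34 for *MIXL1* and -2.52 for *EOMES* (log2), and all 3 were higher on day 28 than on day 24.

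*GSC* followed the same course at a lower level, at 0.19 TPM with DOX and 0.78, 7.81, 28.8, 15.1, 3.41 and 19.2 TPM on days 8 to 28. Its highest day, day 16, was only 0.57 (log2) above day 28, so its rise was followed by a dip and a return. *LHX1* had 2 separate rises, at 0.51 TPM with DOX and 25.6, 8.27, 3.42, 182, 21.2 and 23.2 TPM on the 6 days. It was the 1 gene of the 10 that was above the sample with DOX by at least 1 (log2) on day 8. On days 24 and 28 it was close to its 26.5 and 28.6 TPM in EED-/- H1, the line with the same deletion.

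The genes of nascent and presomitic mesoderm were high on day 20 alone. *MESP1* was at 0 TPM with DOX and at 0.67, 0.39, 0.44, 46.1, 0 and 0.15 TPM on days 8 to 28. *MESP2* was at 1.76 TPM with DOX and at 1.30, 0.89, 1.74, 12.6, 0.50 and 0.23 TPM. *TBX6* was at 6.23 TPM with DOX and at 7.57, 7.49, 4.44, 63.9, 1.53 and 1.17 TPM. Before day 20 none of the 3 had moved by 1 (log2) from its level with DOX, and by day 28 *TBX6* and *MESP2* were more than 1 below it. *CDX1* rose more gradually, from 0.52 TPM with DOX through 1.22, 2.42 and 10.9 TPM to 43.9 TPM on day 20, and was at 4.29 and 5.30 TPM afterwards.

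Of the 8 transient genes, *MIXL1* and *EOMES* had their highest level on day 16 and the other 6 on day 20. Day 20 was also the most frequent peak over all genes, with 667 of 2233 transient genes (29.9%), and 332 (14.9%) peaked on day 16. Where the second highest of days 8 to 24 also had to pass, *T*, *MIXL1* and *EOMES* were left, 3 of 9. That *MESP1*, *MESP2*, *TBX6*, *LHX1* and *CDX1* counted as transient thus rests on the day 20 library. *CDX1* missed the stricter rule by little (0.92 log2). It was already at 10.9 TPM on day 16, and *LHX1* at 25.6 TPM on day 8, both above their levels with DOX. Over all genes this stricter rule left 3.41%.

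**Figure D2:**
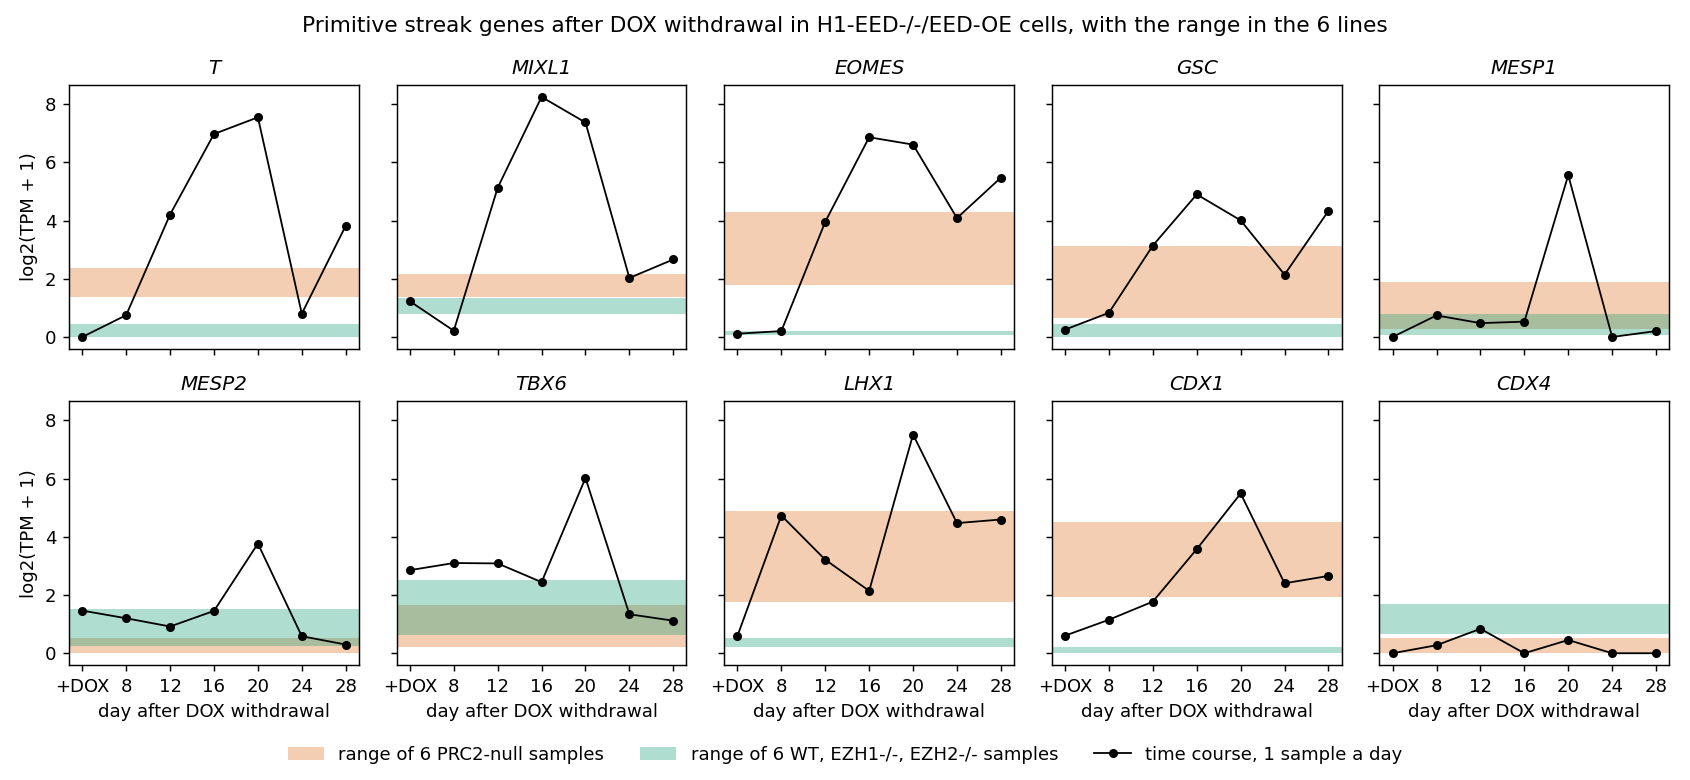
Expression of the 10 genes as log2(TPM + 1) (vertical axes, 1 scale for all) in H1-EED-/-/EED-OE cells with DOX and on days 8 to 28 after its withdrawal (horizontal axes). Black points are single samples, and bands give the range of the 6 PRC2-null samples (orange) and of the 6 WT H1, EZH1-/- H1 and EZH2-/- H1 samples (green). *MIXL1* reaches 303 TPM on day 16 and *T* 186 TPM on day 20, far above both bands, while *CDX4* stays under 1 TPM.

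Counted day by day against the sample with DOX, and at a difference of at least 1 (log2), 1 of the 9 genes was higher on day 8, as were 11.1% of all genes. On day 12 this was 6 of 9 (11.3% of all genes), on day 16 again 6 of 9 (12.1%) and on day 20 all 9 (19.4%). On day 24 it was 4 of 9 (23.9%) and on day 28 it was 6 of 9 (32.2%). The genes thus stood furthest from the background on days 12 to 20, and on day 24 least, apart from day 8. Their median difference from the sample with DOX was 5.22 on day 20 and 0.80 on day 24 (log2).

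Set against the lines, 8 of the 10 genes reached a level on days 8 to 24 that was at least 1 (log2) above the highest of the 12 line samples, against 3.13% of the 21151 genes that reached a TPM of 1 in any sample. The peak of *MIXL1* was 85.8 times the highest line sample, that of *T* was 45.0 times, that of *MESP1* 16.9 times and that of *TBX6* 13.6 times. For *MESP2*, *LHX1*, *EOMES* and *GSC* the ratio was 6.71, 6.35, 6.23 and 3.69. *CDX1*, at 43.9 TPM on day 20, was 2.00 times its highest line sample, in SUZ12-/- H1, and missed the threshold by little (0.97 log2), and *CDX4* did not exceed its level in the lines. On day 28, *T* (13.1 TPM), *MIXL1* (5.33 TPM), *EOMES* (43.4 TPM) and *GSC* (19.2 TPM) were above every line sample, and the other 6 were not. The share of all genes above every line sample on day 28 was not determined, so these values only describe the single genes.

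The pluripotency genes fell at different times. *POU5F1* was at 2916 TPM with DOX, at 3356 TPM on day 16 and still at 1579.8 TPM on day 20, and then at 46.2 and 33.6 TPM on days 24 and 28. *NANOG* was at 54.1 TPM with DOX and was highest, at 184 TPM, on day 16, and was at 42.4 TPM on day 20. *SOX2* was at 131 TPM with DOX and at 417, 165, 94.4 and 2.48 TPM on days 8, 12, 16 and 20. From day 16 to day 20 all 3 were thus lower, *SOX2* by the largest factor, and the bulk sample of day 20 still held *POU5F1* beside high *T* and *MIXL1*. All 7 pluripotent cell markers were called lower in the PRC2-null lines, against 5.09% of all genes, with a median log2 fold change of -4.28, in the samples where the 5 streak genes rose. Their part in the levels of the streak genes was not tested.

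Of 19 genes for signals that induce the streak and for their feedback, 13 were transient in the time course. The highest rises were those of *FGF4*, at 0.21 TPM with DOX, 51.9 TPM on day 16 and 3.08 TPM on day 20, of *WNT8A*, listed at 0 with DOX and at 37.7 TPM on day 20, and of *LEFTY2*, a NODAL inhibitor, at 12.9 and 179 TPM. In the PRC2-null lines 7 of the 17 tested were called higher and 2, *TDGF1* and *FOXH1*, lower, with a median log2 fold change of 0.59. *LEF1*, a mediator of WNT signalling, rose by 5.02 ± 0.17, *WNT5A* by 4.87 ± 0.28 and *BMP4* by 4.77 ± 0.28, while *TDGF1*, the NODAL co-receptor that hESCs express, fell by 5.09 ± 0.29 on the log2 scale (SE, limma). *BMP4* was at 329 TPM on day 20, when *T* and *MIXL1* were at 186 and 164 TPM. It was at 368 TPM on day 24, when *T* and *MIXL1* were at 0.74 and 3.08 TPM. How these levels are related was not tested.

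Genes of the posterior streak and presomitic mesoderm were transient in 7 of 12 cases. *MSGN1*, a factor of presomitic mesoderm, was listed at 0 through day 16 and was at 91.4 TPM on day 20, 0.51 TPM on day 24 and 3.17 TPM on day 28. *DLL3*, a Notch ligand, went from 12.8 TPM with DOX to 194 TPM on day 20, and *CYP26A1*, which degrades retinoic acid, from 18.1 to 163 TPM. In the PRC2-null lines 5 of the 12 were called higher and 3, *DLL3*, *NKX1-2* and *TCF15*, lower. *DLL3* was at 66.2 and 62.8 TPM in EZH1-/- H1, at 8.90 and 6.29 TPM in WT H1 and at 4.0 to 6.43 TPM in the PRC2-null samples, so EZH1-/- H1 carried most of that difference. The highest log2 fold changes were in *RSPO3* (5.79 ± 0.34), *TBX3* (5.73 ± 0.19), *EVX1* (3.70 ± 0.14) and *CDX2* (2.69 ± 0.29 SE, limma). *CDX2*, the caudal relative of *CDX1*, was at 34.2 TPM on day 20, the same day as *CDX1*. *MSGN1* was at 0 to 1.49 TPM in the PRC2-null samples, as low there as *MESP1* and *TBX6*.

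The node and axial mesoderm list behaved otherwise. Of its 7 genes tested, 5 were called higher in the PRC2-null lines, with a median log2 fold change of 3.63, and 0 of 7 were transient. *FOXA2* (4.16 ± 0.17), *SHH* (4.15 ± 0.26), *NOG* (3.94 ± 0.28) and *HHEX* (3.63 ± 0.17 SE, limma) led the list, and *FOXA2*, *NOG* and *SHH* were highest on day 28, at 89.7, 59.1 and 28.6 TPM. *FOXJ1* (0.07 ± 0.21) and *OTX2* (-0.56 ± 0.23 SE, limma) were not called. *NOTO* was at 0.58 TPM at most in any sample, too low to be tested. Of 14 genes of mesoderm and endoderm after the streak, 12 were called higher, with a median of 4.15, led by *GATA4* (5.98 ± 0.16), *CXCR4* (5.08 ± 0.18), *ISL1* (5.02 ± 0.22) and *SOX17* (4.98 ± 0.18 SE, limma). Of these 14, 8 were transient, with *HAND1* at 469.6 TPM on day 20 and 11.1 TPM on day 28, *FOXC1* at 49.4 and 2.86 TPM, and *TBX5* at 36.1 TPM on day 12 and 4.03 TPM on day 28. *GATA4* and *CXCR4* were highest on day 28, at 213 and 309 TPM.

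Markers of amnion and trophoblast, which BMP signals also induce in hESCs, differed among themselves. In the PRC2-null lines 8 of 11 were called higher, *GABRP* was called lower and *TFAP2C* and *ELF5* were not called, with a median log2 fold change of 2.55. *TFAP2A* (4.44 ± 0.16), *GATA3* (4.34 ± 0.17), *GATA2* (3.94 ± 0.23) and *KRT7* (3.22 ± 0.13 SE, limma) led. In the time course 4 of the 9 tested were transient. These were *GATA2* and *CGA*, at 64.5 and 6.07 TPM on day 24, *TFAP2C*, at 25.7 TPM on day 20, and *GABRP*, at 329 TPM on day 12. *GATA3* was at 61.4 TPM on day 20 and still at 40.0 TPM on day 28, and was not transient. The summed TPM of the 11 markers overlapped between groups, at 191 to 469 in the 6 other samples and 236 to 468 in the 6 PRC2-null samples. *GABRP* alone was at 167 to 444.6 TPM in the other samples and at 2.23 to 238 TPM in the PRC2-null samples, and without it the sums did not overlap, at 16.3 to 24.7 and 200 to 458 TPM. In the time course the sum of all 11 was 121 with DOX, 374.5 on day 12, 244 on day 20 and 161 on day 28, and without *GABRP* it was 18.0, 45.3, 138 and 134. *ELF5*, a trophoblast factor, was at 0 in all 6 samples of the 3 other lines and in the time course through day 20. Their part in the levels of the streak genes was not tested. The background for all 6 lists is that given above for all genes, with 13.5% called higher and 5.09% lower in the PRC2-null lines, a median log2 fold change of 0.29 and 11.7% transient.

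Genes most like the streak genes over time were found by the Pearson correlation of log2(TPM + 1) over the 7 samples with the mean profile of the 9 genes, each scaled from its lowest to its highest level. Among the 5139 genes that ranged over at least 2 (log2), *RIMBP2* (r = 0.99), *LGALS12* (0.98), *NTS* (0.98), *CASP10* (0.97) and *C3orf58* (0.97) came first, followed by *RALYL*, *PLSCR1*, *TMEM154*, *KRT16* and *VANGL2* (0.97 to 0.96). The 7 points are single libraries of 1 line, and day 20 set the profile, with a mean scaled level of 0.96 against 0.61 on day 16 and 0.26 on day 24. *NTS*, the gene for neurotensin, was the most abundant, at 50.0 TPM with DOX, 786 TPM on day 16, 2683 TPM on day 20 and 188 TPM on day 24. *KRT16*, a keratin gene, went from 0.72 TPM with DOX to 322 TPM on day 20, and *VANGL2*, a planar cell polarity gene, from 32.0 to 141 TPM. In the lines *NTS* was at up to 102 TPM in the 3 other lines and at 80.9 to 307 TPM in the PRC2-null samples, so it too peaked above every line sample.

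**Figure D3:**
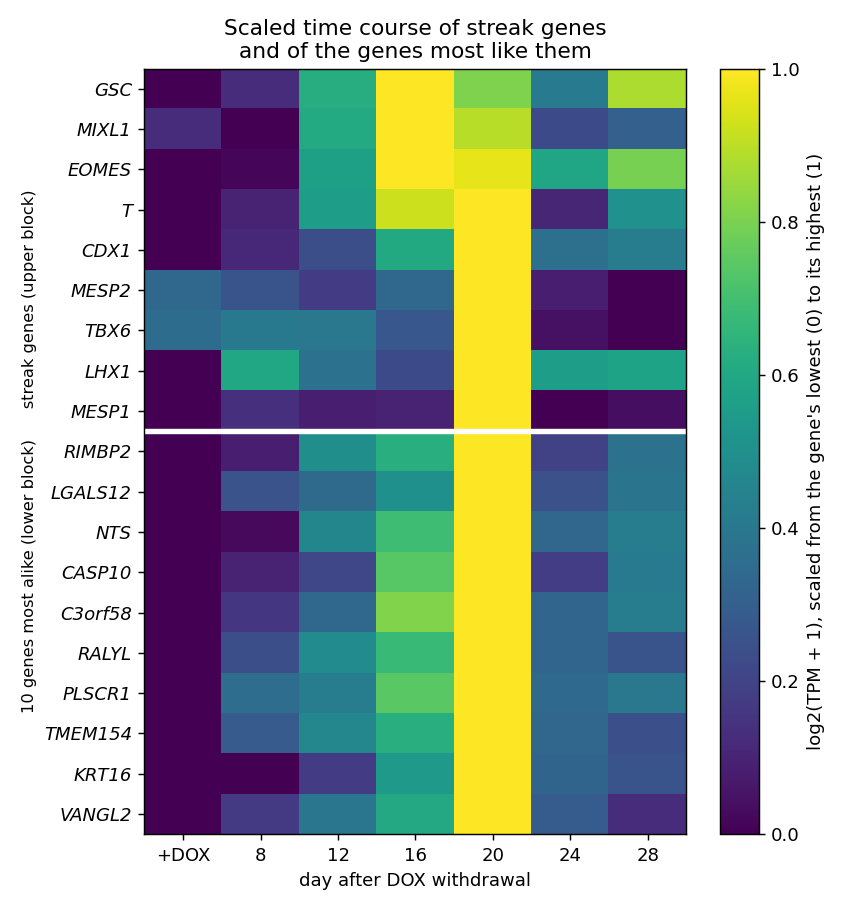
Time course of 9 streak genes (upper block) and of the 10 genes most like their mean profile (lower block) in H1-EED-/-/EED-OE cells, 1 sample a column. Colour is log2(TPM + 1) scaled from the lowest (0) to the highest (1) level of each gene. *GSC*, *MIXL1* and *EOMES* are brightest on day 16 and all other genes on day 20, and *MESP1*, *MESP2* and *TBX6* are bright on that day alone.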

How the data were processed

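RNA-seq libraries (TruSeq) of 19 samples were analysed. Per the study's methods, the authors aligned reads with Bowtie2 to GRCh38 transcripts and quantified them with RSEM, and they deposited TPM values for 33382 genes. The sample labels name Bowtie and RSEM, and they name hg19 beside GRCh38 and hg38. They describe edgeR on counts, but counts were not used here, so limma 3.58.1 (R 4.3.3, lmFit and eBayes with trend and robust options) was fitted to log2(TPM + 1) of the 12 line samples, with genes that reached a TPM of 1 in 2 or more samples (19100, all 10 streak genes among them) and 6 residual degrees of freedom. Calls needed an adjusted p of at most 1% over all genes and a fold change of at least 3. Time course values were described without a test. Scripts were tested on simulated data. Named list genes were up to 4 with the largest called change and up to 3 with the highest transient rise in each of 6 lists. *GABRP*, *ELF5*, *FOXH1*, *NKX1-2*, *TCF15*, *FOXJ1*, *OTX2* and *NOTO* were named after their values were seen. The streak genes and lists were chosen with earlier results of these data known. Coordinates come from GENCODE release 44 and promoters from RefSeq, both GRCh38. Python 3.11.15 with numpy 2.4.6, pandas 2.3.3 and matplotlib 3.10.9 was used. Alternatives were another pseudocount, no filter, a replicate block, looser thresholds, scaling by median ratios and single samples left out. Depth is unknown, so precision rests on the replicates.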

Additional observations from a re-analysis of the deposited data

Results flagged for a closer look

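*GSC* stood apart in 1 of the 6 samples of the 3 other lines. EZH1-/- H1 replicate 1 had 0.36 TPM and the others 0 to 0.09 TPM, and its gap was 0.72 of the range on the log2 scale, above the critical value of 0.625 for 6 samples. It was the 1 such case in 20 groups of samples examined (10 genes in PRC2-null and in other samples), and chance gives about 1 in 20.

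The size of the change differed between PRC2-null lines for 4 genes, by limma's test of the difference itself. From EED-/- H1 to SUZ12-/- H1 the difference was -2.02 for *EOMES*, -1.86 for *GSC*, -2.94 for *LHX1* and 2.43 for *CDX1* on the log2 scale. From SUZ12-/- H1 to EZH2-/-/EZH1-/- H1 it was -1.82 for *CDX1*, both samples of each line lying on opposite sides.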

How the results depend on the processing

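With a pseudocount of 0.1, the number of streak genes called was 7 in place of 5 in EED-/- H1 and in EZH2-/-/EZH1-/- H1 against WT H1 and in the average, with *CDX4* called lower in all 3 (-3.35, -3.14 and -2.53), *TBX6* also in the latter 2 (-2.42 and -1.77) and *T* called higher in EED-/- H1 (3.54). It was 5 in place of 3 in SUZ12-/- H1 against WT H1, 2 in place of 4 between SUZ12-/- H1 and EED-/- H1, and 0 in place of 1 between EZH2-/-/EZH1-/- H1 and SUZ12-/- H1. At an FDR of 5% without a fold cutoff it was 8 in SUZ12-/- H1 and 10 in the averaged comparison of PRC2-null with the 3 other lines, a looser rule by construction. Leaving out single samples gave 1 to 3 in SUZ12-/- H1 against WT H1, 1 to 4 between SUZ12-/- H1 and EED-/- H1, 0 to 2 between EZH2-/-/EZH1-/- H1 and SUZ12-/- H1, 0 to 1 between EZH2-/-/EZH1-/- H1 and EED-/- H1, 4 to 5 in EED-/- H1 and in EZH2-/-/EZH1-/- H1 against WT H1, and 5 throughout for the average. A line left with 1 sample was assumed to vary like the others. Without EED-/- H1 replicate 1 the change of *MESP1* in EED-/- H1 was -0.0096, and without replicate 2 it was 0.94, against 0.46 with both. With the second highest day, 3 of 9 genes were transient, and the values of *GSC* (-0.33) and *MESP2* (-0.010) turned. With day 24 as the later reference, chosen after seeing the data, 9 of 9 were. The cause of these changes was not tested.

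A replicate block gave 5 calls in the average, 3 in SUZ12-/- H1 and 5 each in EED-/- H1 and EZH2-/-/EZH1-/- H1 against WT H1, 4 between SUZ12-/- H1 and EED-/- H1, and changed no count. The numbers did not pair the samples, since deviations of same-numbered samples correlated between lines at -0.12 to 0.22 (mean -0.0027, 15 pairs of lines).

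Scaling by median ratios moved the median of all genes in the average by -0.23, from 0.29 to 0.07, and that of the streak genes from 1.27 to 1.16, with the same counts called. The share of higher among all calls went from 72.7% to 58.0% in EED-/- H1 against WT H1 and from 57.8% to 70.0% between SUZ12-/- H1 and EED-/- H1. Days without replicates and unknown depth limit what low TPM values can show.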
